A study of Mus musculus with 128 samples.

Results

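The Bcl2 family was followed through 10 of its genes, grouped here by role. Bcl2, Bcl2l1, Bcl2l10 and Mcl1 were taken as guardians and Bax and Bak1 as pore formers. Bid, Bad, Bbc3 and Pmaip1 were taken as BH3-only genes. The role of Bcl2l10 in these cells was not tested. The 10 genes were taken by gene symbol from a table of 41300 genes. RNA with a polyA tail had been measured in single mouse MII oocytes (mature eggs halted before fertilization) and in single embryos of 2, 4 and 8 cells, collected at 1.5, 2.5 and 3.5 days post fertilization. All came from C57BL/6 mice. At each stage 16 libraries were labelled WT (m+/p-) and 16 Kdm4a knockout (m-/p-). The labels state that eggs of both genotypes were fertilized by Kdm4a knockout sperm, so that embryos called wildtype also lack a functional paternal copy, and wildtype and knockout embryos differ in the maternal allele. Both genotypes were taken when control embryos reached the stage, and the zona pellucida, the coat of the egg, was removed. No label names the mothers or a batch, so p-values measure the spread between single oocytes or embryos only. Of 128 libraries 127 were used, with 528377 to 4657857 counts each; 8-cell knockout replicate 4, which held almost no counts, was left out.

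Proteins of the Bcl2 family decide whether the outer membrane of the mitochondrion is opened during apoptosis. The pore formers Bax and Bak make the opening that releases cytochrome c, the guardians hold them in check, and the BH3-only proteins respond to stress by binding guardians or by activating the pore formers. In the mouse, Bcl2l10 (also called Diva or Boo) is known for its expression in the ovary and oocyte, and embryos without Mcl1 die before implantation. Kdm4a is a histone demethylase that removes methyl groups from lysine 9 and lysine 36 of histone H3.

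The promoters of 3 members that rose between oocyte and 8-cell embryo are shown, to give the sequence before the start of 1 gene of each role: Mcl1 as the guardian, Bid as the BH3-only gene and Bax as the pore former. Each sequence is the 250 bases before a RefSeq gene start in GRCm38.p6, read 5′ to 3′ on the strand of the gene. Capitals mark matches to any of 4 short motifs on either strand. The GC box was searched as GGGCGG. The letters of the CCAAT box were searched as named. The TATA box was searched as TATAAA. The E box was searched as CACGTG.
Mcl1, chr3:95658471-95658720, plus strand: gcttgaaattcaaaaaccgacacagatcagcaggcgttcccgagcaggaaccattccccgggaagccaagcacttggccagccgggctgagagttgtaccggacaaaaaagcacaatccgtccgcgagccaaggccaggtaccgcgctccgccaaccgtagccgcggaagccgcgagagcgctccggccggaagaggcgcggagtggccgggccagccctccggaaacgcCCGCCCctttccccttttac
Bid, chr6:120916825-120917074, minus strand: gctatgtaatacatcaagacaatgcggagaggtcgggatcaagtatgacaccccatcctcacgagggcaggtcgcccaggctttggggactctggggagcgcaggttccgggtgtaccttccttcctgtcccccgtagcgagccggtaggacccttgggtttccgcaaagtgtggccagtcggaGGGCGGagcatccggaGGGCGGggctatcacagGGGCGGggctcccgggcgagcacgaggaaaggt
Bax, chr7:45466899-45467148, minus strand: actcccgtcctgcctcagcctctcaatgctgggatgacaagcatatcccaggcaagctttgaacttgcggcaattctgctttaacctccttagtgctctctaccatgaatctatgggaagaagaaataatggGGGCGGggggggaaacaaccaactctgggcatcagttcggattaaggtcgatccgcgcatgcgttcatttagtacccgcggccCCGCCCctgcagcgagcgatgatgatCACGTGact
The GC box was found 1 time in the Mcl1 window, 3 times in the Bid window and 2 times in the Bax window, and the Bax window also held 1 E box. None of these 3 windows held a CCAAT box or a TATA box. Of 32817 promoter windows of this length, 32.7% held the GC box, 33.8% the CCAAT box, 12.4% the TATA box and 6.02% the E box, so a GC box is common among all promoters. A match describes the letters only.

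The targeted gene was checked first. Kdm4a ranged from 4.6 to 16.2 CPM (counts scaled by the library total; median 10.8) in wildtype oocytes and from 0 to 3.76 (median 1.15) in knockout oocytes. It ranged from 5.09 to 22.6 (median 16.5) in wildtype and from 0 to 6.02 (median 2.26) in knockout 2-cell embryos. The log2 fold change of knockout against wildtype (± approximate SE) was -3.0 ± 0.24 in oocytes and -2.42 ± 0.30 in 2-cell embryos (edgeR adjusted p = 4.9e-11 and 3.3e-07). At the 4-cell stage wildtype libraries held 0 to 11.1 CPM (median 3.36) and knockout libraries 0 to 4.71 (median 1.36). At the 8-cell stage wildtype libraries held 0 to 3.4 CPM (median 1.59) and knockout libraries 0 to 6.29 (median 1.08), below the level that was tested, so the labels could not be checked there by this gene. The sources used here do not name the deleted part of Kdm4a.

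Of the 127 libraries, 125 correlated best across genes with the wildtype mean of their own labelled stage. The library labelled 8-cell knockout replicate 7 was closest to MII oocytes, with the 2-cell mean almost as close (r = 0.76 with MII, 0.75 with the 2-cell and 0.10 with the 8-cell mean). It held 12150 CPM of Btg4 and 1735 CPM of Bmp15, both oocyte genes, against at most 38.9 and 8.27 CPM in the other 8-cell knockout libraries. Results at the 8-cell stage are therefore given with and without it. The library labelled 8-cell knockout replicate 16 was slightly closer to the 4-cell than to the 8-cell mean (r = 0.93 and 0.90). Knockout oocyte replicate 15 matched its label but stood apart, at r = 0.87 with MII and 0.81 with the 2-cell mean. Every other oocyte reached at least 0.97 with MII. That library also had the fewest genes detected among the oocytes (11139). The summed level of 14 oocyte markers was 16674 to 32959 CPM in oocytes and 4456 to 10725 CPM in 4-cell embryos. Of 17 cumulus and granulosa markers, whose cells surround the egg, the summed level stayed between 18.2 and 242 CPM. In oocytes of each genotype 9 of the 17 were detected, 3 at a mean above 1 CPM in wildtype and 2 in knockout. In 2-cell embryos of each genotype 15 were detected, 7 at a mean above 1 CPM. Amh was the only marker of this list at 0 in all 8 groups. The 6 sperm markers summed to at most 7.66 CPM in any library. In such samples fewer cells and less RNA per cell cannot be told apart.

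Among the 10 genes, a single gene grouped as a guardian made up most of the summed level at each stage. That gene changed between the 2-cell and the 4-cell stage. The family levels and shares given here cover these 10 genes only. Other members, such as Bcl2l14, are outside the sum. Per kilobase of exon, the scale on which genes can be compared, Bcl2l10 made up 99.9% of the summed family level in wildtype oocytes and 98.9% in wildtype 2-cell embryos. It made up 3.28% in wildtype 4-cell and 1.54% in wildtype 8-cell embryos. Mcl1 rose over the same stages from 0.0119% and 0.677% to 82.5% and 86.6% of the family. The summed level of the 10 genes fell from 2039 CPM per kb in wildtype oocytes and 2226 in wildtype 2-cell embryos to 128 in wildtype 4-cell and 109 in wildtype 8-cell embryos. Knockout embryos showed the same order, with Bcl2l10 at 99.4% of the family at the 2-cell stage and Mcl1 at 75.2% at the 4-cell stage. In knockout 8-cell embryos Mcl1 was at 52.4% and Bcl2l10 at 32.8% of the family, and at 76.7% and 1.87% without replicate 7.

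**Figure D1:**
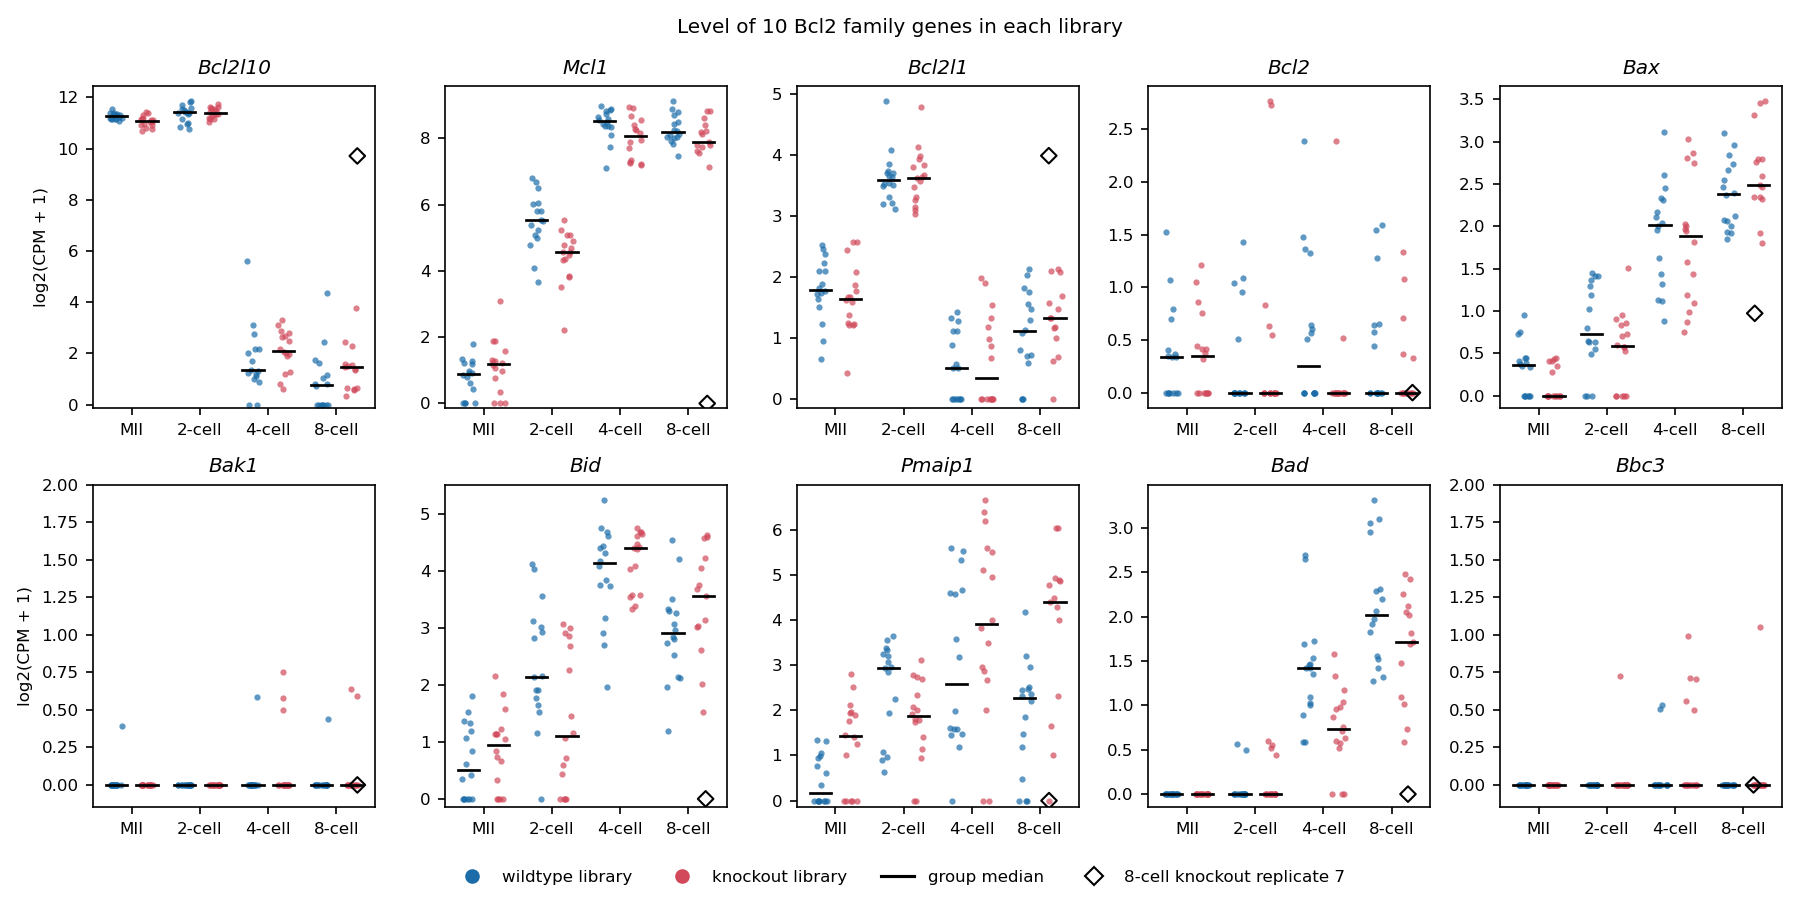
Level of each of the 10 genes, as log2(CPM + 1) on the vertical axis, in single libraries of each stage on the horizontal axis; points are libraries, bars are group medians and the open diamond is the library labelled 8-cell knockout replicate 7. Bcl2l10 is high through the 2-cell stage and low from the 4-cell stage, Mcl1 does the reverse, and the diamond lies below the oocytes but above all other 8-cell libraries for Bcl2l10, and at 0 for Mcl1.

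Bcl2l10 (chromosome 9, 75347758 to 75351632, plus strand, mm10) was the most abundant member of the oocyte. Wildtype oocytes held 2136 to 3033 CPM (median 2484) and knockout oocytes 1633 to 2769 (median 2150). Wildtype 2-cell embryos held 1751 to 3703 CPM (median 2729) and knockout 2-cell embryos 2134 to 3432 (median 2686). The lowest library of these stages, a knockout oocyte, thus still held 1633 CPM. In 4-cell embryos the level was 0 to 47.5 CPM (median 1.53) in wildtype and 0.526 to 8.92 (median 3.32) in knockout libraries. In 8-cell embryos it was 0 to 19.7 CPM (median 0.692) in wildtype and 0.255 to 12.6 (median 1.71) in knockout libraries, leaving out replicate 7 at 839 CPM. No 4-cell library overlapped a 2-cell library. The fall from the 2-cell to the 4-cell stage was -9.36 ± 0.42 in wildtype and -9.70 ± 0.43 in knockout embryos on the log2 scale (edgeR adjusted p = 4.8e-31 and 2.0e-31). In the order of the 8 group means, a single gap, that between knockout oocytes and the next lower group, was wider than the SDs.

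From oocyte to 2-cell embryo Bcl2l10 was not called, because its change was under the 1 on the log2 scale that a stage step needed. The sign of this small difference depended on the scaling. With TMM factors, which assume that most genes keep their share, it was -0.34 ± 0.091 in wildtype and -0.11 ± 0.091 in knockout (edgeR adjusted p = 5.7e-04 and 0.29). With library totals alone it was 0.11 and 0.34 (adjusted p = 0.21 and 1.7e-04). The same change of scale moved the median of all tested genes from 0.17 to 0.63 in wildtype.

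Mcl1 (chromosome 3, 95658788 to 95663176, plus strand) encodes a guardian with a short-lived protein. It was at 0 to 2.44 CPM (median 0.850) in wildtype oocytes and 0 to 7.45 (median 1.28) in knockout oocytes. It then reached 11.6 to 110 CPM (median 44.9) in wildtype and 3.67 to 45.2 (median 22.9) in knockout 2-cell embryos. At the 4-cell stage it was 137 to 507 CPM (median 365) in wildtype and 147 to 488 (median 266) in knockout libraries. At the 8-cell stage it was 176 to 557 CPM (median 289) in wildtype and 140 to 456 (median 257) in knockout libraries, leaving out replicate 7 at 0. Wildtype oocytes, 2-cell and 4-cell embryos formed 3 ranges that did not overlap. The rise was 5.42 ± 0.40 from oocyte to 2-cell and 2.60 ± 0.24 from 2-cell to 4-cell in wildtype (edgeR adjusted p = 3.8e-20 and 1.3e-15). In knockouts it was 3.41 ± 0.36 and 3.30 ± 0.25 (adjusted p = 3.0e-13 and 2.5e-19). No further change was called to the 8-cell stage, at -0.06 ± 0.26 in wildtype and -0.03 ± 0.26 in knockout. Of the non-zero Mcl1 values 50.4% were not whole numbers, although Mcl1 shares no exon sequence with another gene of the deposited table. The sources used here do not say how such values arose.

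Bcl2l1, the gene of the guardian Bcl-xL, had its highest level at the 2-cell stage. It lay between 0.352 and 4.98 CPM in all oocytes, with medians of 2.48 in wildtype and 2.14 in knockout. In 2-cell embryos it lay between 7.21 and 28.7 CPM, with medians of 11 in wildtype and 11.4 in knockout. In 4-cell embryos it was at most 2.98 CPM, with 15 of 32 libraries at 0. The 2-cell libraries therefore stood above all oocytes and all 4-cell embryos. It rose by 1.70 ± 0.23 in wildtype and 1.86 ± 0.23 in knockout from oocyte to 2-cell, and then fell by 4.50 ± 0.43 and 4.13 ± 0.41 (edgeR adjusted p at most 5.1e-10 in these 4 comparisons). In 8-cell embryos the medians were 1.16 CPM in wildtype and 1.53 in knockout, and the highest value, 14.9 CPM, was that of replicate 7. Bcl2, the founding member, never exceeded 5.82 CPM, and 77 of 127 libraries held no count of it. Bcl2 group means lay between 0.254 and 0.829 CPM, each within 1 SD of its neighbour in the order.

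The pore formers were low in the oocyte. Bax was at 0 to 0.942 CPM (median 0.282) in wildtype oocytes and 2.61 to 7.56 (median 4.22) in wildtype 8-cell embryos, ranges that did not overlap. The rise over these stages was 3.47 ± 0.36 (edgeR adjusted p = 1.4e-13), called in all 30 alternative settings. In between, wildtype medians were 0.657 CPM at the 2-cell and 3.05 CPM at the 4-cell stage. Knockout medians were 0 CPM in oocytes, 0.506 at the 2-cell, 2.68 at the 4-cell and 4.59 at the 8-cell stage. Bax shares exon sequence with RP23-218K15.5, and whether strand was used in counting is unknown here. Bak1 received 4 counts in all libraries together, all of them in fractional values, and it overlaps Ggnbp1. No Bak1 count was found in knockout oocytes or in 2-cell embryos of either genotype, which allows at most 0.0561 CPM in knockout oocytes and 0.0899 CPM in wildtype 2-cell embryos (3 counts of the group total; counting error only).

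Among the BH3-only genes, Bid and Pmaip1 rose in cleavage, Bad appeared at the 4-cell stage and Bbc3 was close to absent. Bid, whose protein links caspase cleavage to Bax, was at 0 to 2.49 CPM (median 0.431) in wildtype oocytes and 0 to 16.4 (median 3.42) in wildtype 2-cell embryos. It was at 2.91 to 36.9 CPM (median 16.5) in wildtype 4-cell and 1.28 to 22.4 (median 6.48) in wildtype 8-cell embryos. Knockout medians were 0.930, 1.16, 20 and, without replicate 7, 11.3 CPM. The 4-cell stage had the highest median in both genotypes. The fall to the 8-cell stage was not called in either genotype. In wildtype it was -0.97 ± 0.33 (edgeR adjusted p = 0.016, a change under 1) and in knockout -0.58 ± 0.33 (adjusted p = 0.20). From 2-cell to 4-cell Bid rose by 1.33 ± 0.40 in wildtype and 2.50 ± 0.43 in knockout (edgeR adjusted p = 0.0020 and 2.9e-07), and the difference between these rises was not called (1.17 ± 0.57, adjusted p = 0.16). It was called in replicates 1 to 8 alone (3.06, adjusted p = 0.024) and was 0.15 (adjusted p = 0.95) in replicates 9 to 16.

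Bad, a BH3-only gene that is switched by survival signals, had no count in any oocyte and at most 0.516 CPM in 2-cell embryos. It was at 0.5 to 5.46 CPM (median 1.69) in wildtype 4-cell and 1.42 to 8.99 (median 3.05) in wildtype 8-cell embryos. The mean of wildtype 8-cell embryos was at least 65.6-fold higher than in wildtype oocytes, taking 3 counts of the whole oocyte group as the floor. In knockout libraries the medians were 0.661 CPM at the 4-cell stage and, without replicate 7, 2.40 at the 8-cell stage. Bad shares exon sequence with Gpr137. Bbc3, the gene of the p53 target Puma, received 12 counts in all, 6 of them in knockout 4-cell embryos.

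Pmaip1, the gene of Noxa, which binds the Mcl1 protein, varied widely between single embryos. It was at 0 to 1.53 CPM (median 0.137) in wildtype and 0 to 5.96 (median 1.70) in knockout oocytes. At the 2-cell stage it was at 0.554 to 11.4 CPM (median 6.71) in wildtype and 0 to 7.62 (median 2.65) in knockout libraries. At the 4-cell stage the range was 0 to 47.3 CPM (median 5.52) in wildtype and 0 to 99.9 (median 14.1) in knockout libraries. At the 8-cell stage it was 0 to 17.1 CPM (median 3.80) in wildtype and 0 to 65.0 (median 20.1) in knockout libraries. The ranges of the genotypes overlapped at every stage, with an SD above the mean in wildtype 4-cell embryos (14.7 ± 16.8 CPM, SD, n = 16). In wildtype it rose by 3.02 ± 0.54 from oocyte to 2-cell (edgeR adjusted p = 8.4e-07) and fell by 1.78 ± 0.66 from 4-cell to 8-cell (adjusted p = 0.029), a call lost in limma voom (adjusted p = 0.13), without the filter (0.060), with the replicate block (0.14), in replicates 1 to 8 alone (0.55) and without replicate 5, 9 or 13 (up to 0.088). From 2-cell to 4-cell in wildtype it was not called (1.13 ± 0.55, adjusted p = 0.052). In knockouts no change was called to the 2-cell stage (0.13 ± 0.49, adjusted p = 0.81), and it rose by 3.02 ± 0.60 from 2-cell to 4-cell (adjusted p = 5.4e-06).

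**Figure D2:**
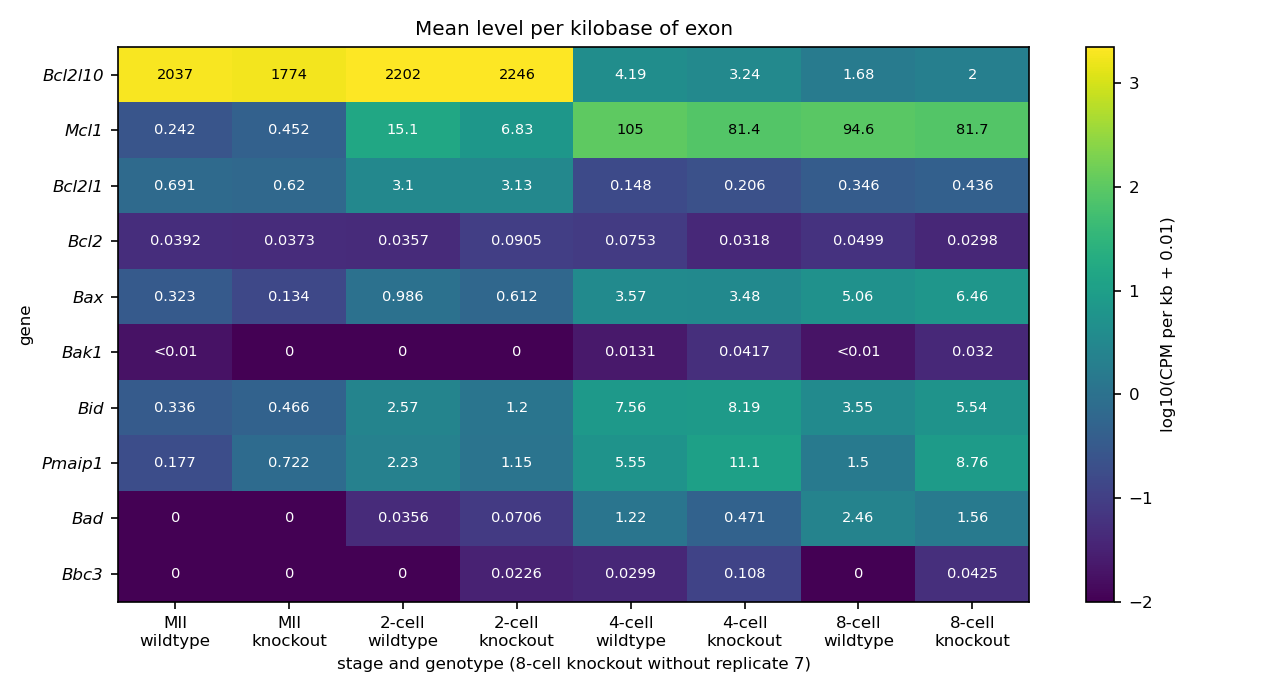
Mean CPM per kilobase of exon (number in each cell; colour on a log10 scale) for the 10 genes in rows and the 8 groups in columns, the 8-cell knockout without replicate 7. Bcl2l10 stands near 2000 in the first 4 columns and Mcl1 near 100 in the last 4, while Bax, Bid, Pmaip1 and Bad reach their highest values at the 4-cell or 8-cell stage.

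Read by role and per kilobase, the guardians summed to 2038 ± 186 CPM per kb in wildtype oocytes (SD, n = 16) and 110 ± 30.2 in wildtype 4-cell embryos. The pore formers rose from 0.331 ± 0.334 to 3.58 ± 2.02 CPM per kb and the BH3-only genes from 0.514 ± 0.441 to 14.4 ± 6.86. The guardians thus made up 99.96% of the sum of the 10 genes in wildtype oocytes and 86.0% in wildtype 4-cell embryos. In 4-cell knockouts the guardians were at 78.4% and the BH3-only genes at 18.3%, against 11.2% in the wildtype. In 8-cell embryos the BH3-only share was 6.87% in wildtype and 10.2% in knockout, or 14.9% without replicate 7. These shares are of the 10 genes only and are given as a description. The guardian share in oocytes rests almost wholly on placing Bcl2l10 in that role.

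For the stage steps a call needed an edgeR adjusted p under 0.05 and a change of at least 1 on the log2 scale, in either direction. From oocyte to 2-cell in wildtype 3 of the 4 members tested were higher, where 31.3% of all tested genes were higher. In knockouts 2 of the 4 were higher, against 29.9% of all tested genes. From 2-cell to 4-cell in wildtype 2 members were higher and 2 lower of 5 tested, where 74.7% of all tested genes were called in either direction. In knockouts 3 members were higher and 2 lower of 5 tested (33.2% and 41.8% of all tested genes). From 4-cell to 8-cell edgeR called 1 of 4 members tested in wildtype (20.6% of all tested genes) and 0 in knockout (8.10% of all tested genes were higher and 3.88% lower). In the knockout 1 had an unadjusted p under 0.05, DESeq2 called 2 and limma voom 1. In the knockout, Bax rose by 0.88 ± 0.30 at that step (edgeR adjusted p = 0.029; 0.94 without replicate 7, adjusted p = 0.015), under the fold minimum. From wildtype oocyte to wildtype 8-cell embryo Mcl1, Bax, Bid and Pmaip1 were higher and Bcl2l10 lower, which are all 5 members tested (82.4% of all tested genes). Members enter these counts only if they pass a minimum level in 1 of the groups compared, which favours genes that changed.

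**Figure D3:**
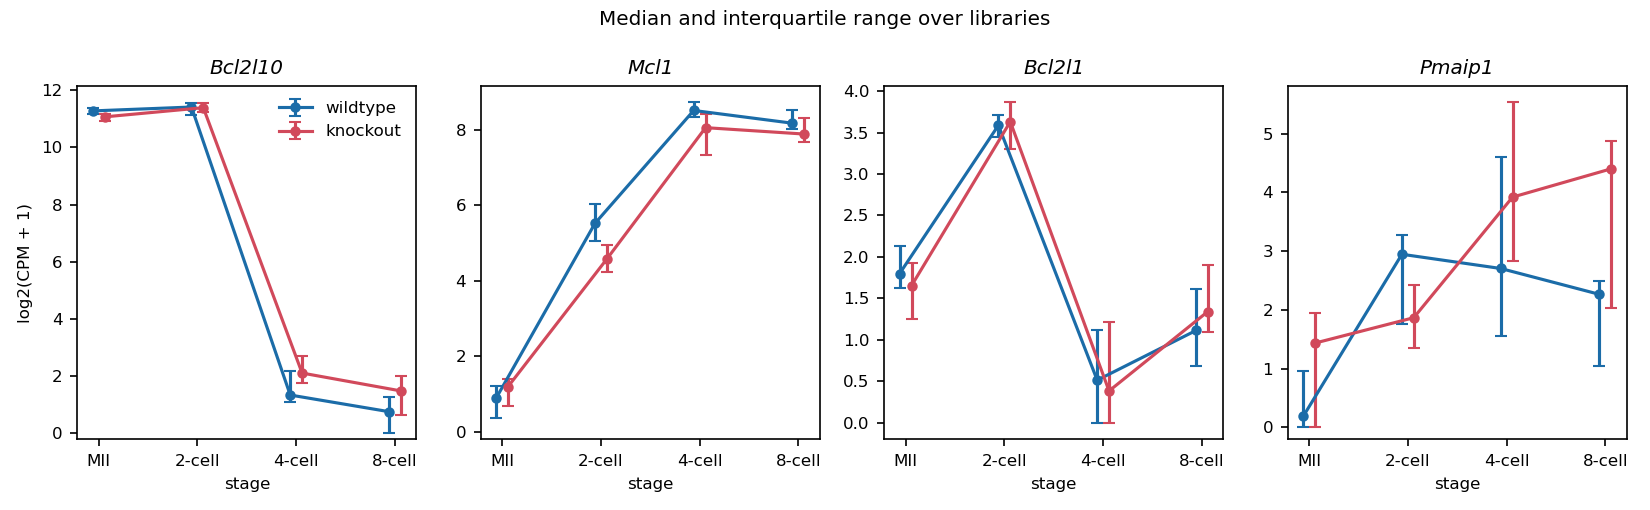
Median level over libraries, as log2(CPM + 1) on the vertical axis, by stage on the horizontal axis for 4 members; whiskers are the interquartile range, blue is wildtype and red is knockout, and the 8-cell knockout includes replicate 7. For Mcl1 and Pmaip1 the knockout line starts above and lies below the wildtype line at the 2-cell stage, and for Pmaip1 it is above again at the 4-cell and 8-cell stages.

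The comparison of knockout with wildtype at each stage asks which transcripts depend on maternal Kdm4a. Mcl1 was lower in knockout 2-cell embryos, at 23.3 ± 10.6 CPM (SD, n = 16) against 51.5 ± 28.7 in wildtype, a log2 fold change of -1.08 ± 0.26 (edgeR adjusted p = 0.0044). In 15 of 16 knockout embryos it lay below the wildtype median, and in 2 below the lowest wildtype embryo, so the ranges overlapped. It was 1 of 3 members tested at this stage, where 17.3% of all tested genes were called. Bcl2l10 (0.07 ± 0.10, adjusted p = 0.68) and Bcl2l1 (0.08 ± 0.19, adjusted p = 0.79) were not called. The Mcl1 difference was wider in replicates 1 to 8 (60.7 CPM in wildtype and 17.8 in knockout, -1.71) than in replicates 9 to 16 (42.4 and 28.8, -0.48, adjusted p = 0.51), where it was not called. The sources used here do not say what the replicate numbers mark.

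Beside this result, the summed level of 8 genes of the 2-cell genome activation list, such as the Zscan4 genes, had a median of 2273 CPM in wildtype (1080 to 4414) and 1127 CPM in knockout 2-cell embryos (716 to 3224). The summed level of 10 late cleavage genes had medians of 99.8 CPM in wildtype and 71.8 CPM in knockout 2-cell embryos. Their part in the Mcl1 result was not tested. Pmaip1 and Bid were also at lower medians in knockout 2-cell embryos, Pmaip1 below the wildtype median in 15 of 16 and Bid in 10 of 16. For Bid the means were 6.59 CPM in wildtype and 0.616 in knockout in replicates 1 to 8, and 4.64 CPM in both genotypes in replicates 9 to 16. Neither passed the expression filter, and without the filter neither was called (-0.89 ± 0.40 and -0.99 ± 0.50, adjusted p = 0.17 and 0.24; 6.85% of all genes tested so were called).

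At the other stages edgeR called no member among those that passed the filter. With an unadjusted p under 0.05 there was 1 in oocytes and 0 at the 4-cell and 8-cell stages. DESeq2 called 1, 0 and 1 member at these stages and limma voom 1, 0 and 0. In oocytes Bcl2l10 was at 2164 ± 326 CPM in knockout and 2486 ± 227 in wildtype, below the wildtype median in 13 of 16, a log2 fold change of -0.18 ± 0.068 that was not called (adjusted p = 0.079; 6.69% of all tested genes were lower). In 4-cell embryos Mcl1 (-0.38 ± 0.19, adjusted p = 0.17), Pmaip1 (0.97 ± 0.62, adjusted p = 0.30) and Bid (0.12 ± 0.26, adjusted p = 0.80) were not called, where 16.4% of all tested genes were. In 8-cell embryos Mcl1 (-0.34 ± 0.31, adjusted p = 0.52) and Bid (0.52 ± 0.38, adjusted p = 0.40) were not called, where 11.4% were. Without replicate 7 these values were -0.24 (adjusted p = 0.34) and 0.61 (adjusted p = 0.24). Bid turned direction in replicates 1 to 8 alone (-0.56, adjusted p = 0.72). Bad, without the filter, was lower in 15 of 16 knockout 4-cell embryos than the wildtype median, and was not called (-1.25 ± 0.55, adjusted p = 0.15; 10.2% of all genes tested so were called).

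Pmaip1 at the 8-cell stage depended on whether it was tested. Knockout embryos held 21.6 ± 20.7 CPM (SD, n = 15) and wildtype embryos 3.97 ± 4.26 (n = 16), and 9 of 15 knockout libraries lay above the highest wildtype library. With all 15 knockout libraries it missed the filter. Without replicate 7, which held no Pmaip1 count, it passed and was higher by 2.47 ± 0.55 (edgeR adjusted p = 0.0030), the 1 member called of 3 tested, where 6.94% of all tested genes were higher. The filter favours genes that are high in 1 of the groups, here the knockout (mean 23.2 CPM without replicate 7). The count of 1 in 3 is therefore a description only. With no filter and all libraries Pmaip1 was higher by 2.36 ± 0.63 (adjusted p = 0.020), where 8.89% of all tested genes were higher. Leaving out each replicate number kept it called (adjusted p 0.013 to 0.033). In replicates 1 to 8 alone it was 1.41 (adjusted p = 0.46), in replicates 9 to 16 alone 3.07 (adjusted p = 0.057), and limma voom gave 2.40 (adjusted p = 0.055).

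Pmaip1 in oocytes, also below the filter, was higher in the knockout without it by 1.96 ± 0.59 (edgeR adjusted p = 0.047), where 1.79% of all tested genes were higher. Of 16 knockout oocytes 9 lay above the highest wildtype oocyte. That call was lost when any of 10 of the 16 replicate numbers was left out (adjusted p 0.052 to 0.094). Without knockout replicate 15, the oocyte with the most Pmaip1 (5.96 CPM) and the most Mcl1 (7.45 CPM), it was 1.70 (adjusted p = 0.062). Bcl2l10 at the 8-cell stage was called higher in the knockout without the filter (5.07 ± 1.29, adjusted p = 0.018), and was 0.18 (adjusted p = 0.91) once replicate 7 was left out.

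**Figure D4:**
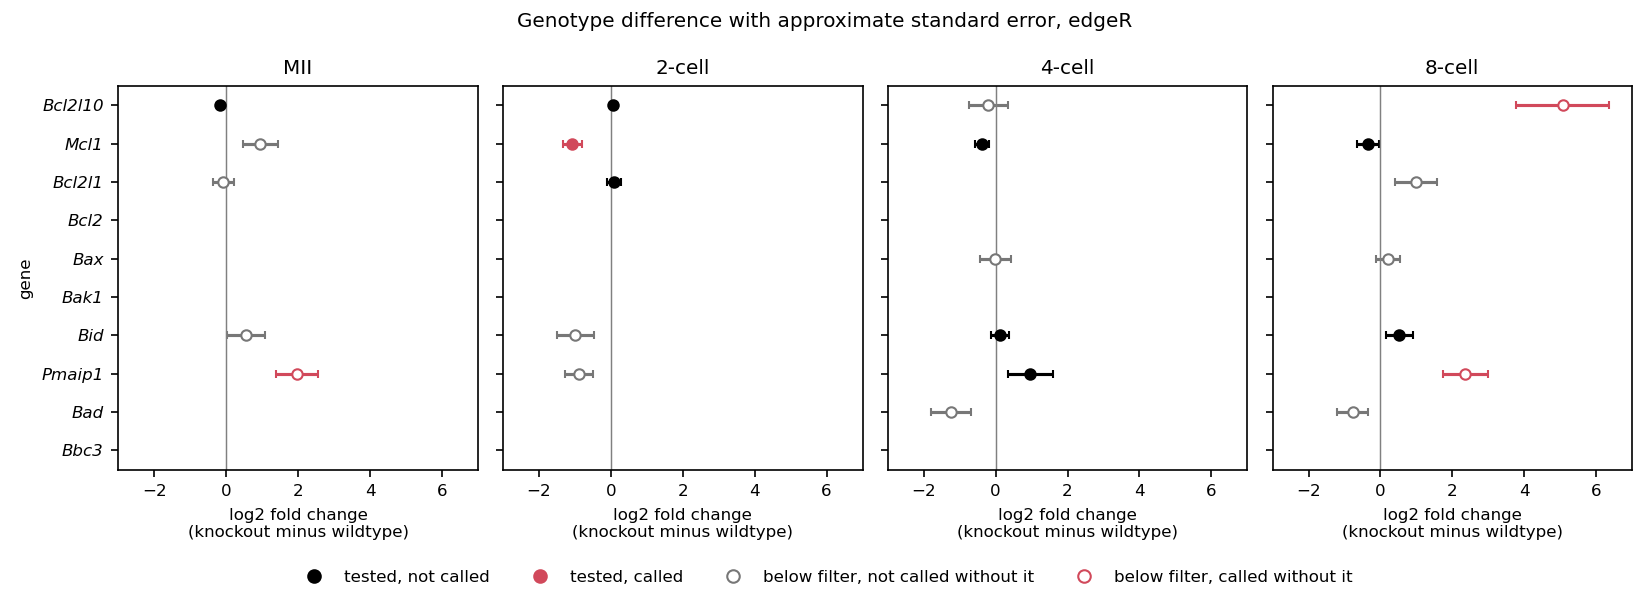
Log2 fold change of knockout minus wildtype (horizontal axis) with its approximate SE for each member (vertical axis) at the 4 stages; filled points passed the expression filter, open points are from the test without it, red marks calls, and members with both group means under 1 CPM are left out. Mcl1 at the 2-cell stage is the 1 filled red point, and the open red point of Bcl2l10 at the 8-cell stage is the one that rests on replicate 7.

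Whether a step differed between genotypes was tested by the interaction. From oocyte to 2-cell, 2 of 4 members tested rose less in the knockout, where 2.05% of all tested genes did: Mcl1 by -2.01 ± 0.55 (edgeR adjusted p = 0.023) and Pmaip1 by -2.88 ± 0.72 (adjusted p = 0.013). Both were higher in knockout oocytes by their means (Mcl1 1.55 against 0.827 CPM, Pmaip1 1.91 against 0.469 CPM) and lower in knockout 2-cell embryos. The oocyte side of both contrasts rests on few counts. Leaving out replicate number 2, 4 or 15 ended the Mcl1 call (adjusted p up to 0.056). Without knockout oocyte replicate 15 alone the Mcl1 value was -1.56 (adjusted p = 0.060) and the Pmaip1 value -2.64 (adjusted p = 0.018). Limma voom called neither (adjusted p = 0.17 and 0.13). From 2-cell to 4-cell 0 of 5 members and from 4-cell to 8-cell 0 of 4 members were called by edgeR (15.5% and 2.73% of all tested genes), with 3 and 0 members at an unadjusted p under 0.05, and DESeq2 and limma voom called 0 as well. The largest of these values was Pmaip1 from 2-cell to 4-cell (1.89 ± 0.80, adjusted p = 0.094).

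Beyond the 10 genes, 4 lists of the pathway were read in the same fits. Among 16 other members of the family, no gene was called in oocytes (6 tested, median log2 fold change 0.10 against 0.02 over all genes). Of all tested genes 5.27% were higher and 6.69% lower there. Bnip3, whose protein marks mitochondria for removal, was higher in the knockout at the 2-cell stage (0.32 ± 0.099, edgeR adjusted p = 0.022) and the 4-cell stage (0.66 ± 0.15, adjusted p = 0.0028). It was 1 of 6 genes tested each time, where 17.3% and 16.4% of all tested genes were called. The 2-cell call was lost without replicate 10 (adjusted p = 0.052). Among 8-cell embryos 1 of 7 tested was called, where 11.4% of all tested genes were. It was Bnip2 at -0.51 ± 0.16 (edgeR adjusted p = 0.037), a call lost without any of 9 replicate numbers. Without replicate 7 the calls were 1 higher (Bnip3) and 2 lower (Bnip2 and Bcl2l14), where 12.4% of all tested genes were called. In development, Bcl2l14 had no count in wildtype oocytes and a mean of 8.68 CPM in wildtype 2-cell, 201 in 4-cell and 303 in 8-cell embryos. Bcl2l11, the gene of Bim, went from 13.1 CPM in wildtype 2-cell to 52.3 in 4-cell and 17.1 in 8-cell embryos, both changes called. From 2-cell to 4-cell 5 of the 6 tested were higher in wildtype and 0 lower, where 31.3% of all tested genes were higher and 43.4% lower.

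Among 15 genes of the apoptosome and caspases, Cycs, the gene of cytochrome c, was lower in the knockout at all 4 stages. It was at 105 against 140 CPM in oocytes, 170 against 229 in 2-cell, 516 against 753 in 4-cell and 479 against 733 in 8-cell embryos. The log2 fold changes were -0.40, -0.37, -0.54 and -0.64 (edgeR adjusted p = 0.0059, 0.022, 0.0079 and 0.048). Cycs has processed copies elsewhere in the genome, so its counts can be split between them, its 2-cell call was lost without any of 3 replicate numbers and its 8-cell call without any of 12, while without replicate 7 alone it was -0.55 (adjusted p = 0.0088). Casp8, the caspase of the death receptors, was lower in knockout oocytes (33.2 against 62.0 CPM, -0.83 ± 0.23, adjusted p = 0.013). With all 8 groups in 1 fit the oocyte calls of Casp8 and Cycs were lost. The Casp8 call was also lost in replicates 9 to 16 alone and the oocyte Cycs call in replicates 1 to 8 alone. At the 4-cell stage Diablo, which relieves caspase inhibition, was lower (-0.44 ± 0.13, adjusted p = 0.018) and Aifm1 higher (0.65 ± 0.21, adjusted p = 0.026). Aifm1 lost the call without any of 5 replicate numbers. Both calls were lost in either set of 8 replicate numbers and with all 8 groups in 1 fit, and the Diablo call also with no filter. Calls per stage were 2 lower of 6 tested (6.69% of all tested genes were lower in oocytes), 2 of 9, 3 of 9 and 1 of 9 (17.3%, 16.4% and 11.4% of all tested genes called). Without replicate 7 the 8-cell calls were 2 lower of 9, Cycs and Diablo, where 12.4% of all tested genes were called. Diablo was then at -0.37 ± 0.11 (edgeR adjusted p = 0.024). The medians of the list were -0.19, 0.03, -0.00094 and -0.34 (-0.25 without replicate 7), against 0.02, -0.01, -0.0046 and 0.03 over all genes. Over development Casp8 went from 62.6 CPM in wildtype 2-cell to 0.0946 in 4-cell embryos, while Casp6 rose from 0.737 CPM in oocytes to 183 in 8-cell embryos.

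Among 10 caspase inhibitors and death receptor genes, Birc3 was higher in knockout 2-cell embryos (847 against 620 CPM, 0.49 ± 0.15, edgeR adjusted p = 0.019). It was 1 of 6 tested, where 17.3% of all tested genes were called. The call was lost without replicate 3 (adjusted p = 0.061). Xiap, a direct caspase inhibitor, was higher in knockout 8-cell embryos (1.14 ± 0.31, edgeR adjusted p = 0.015, and 0.89 without replicate 7, adjusted p = 0.028). It was 1 of 5 tested, where 11.4% of all tested genes were called. The Xiap call was lost in limma voom, with the replicate block and in either set of 8 replicate numbers. No gene of this list was called in oocytes or 4-cell embryos (6 tested each). Of all tested genes 5.27% were higher and 6.69% lower in oocytes, and 16.4% were called at the 4-cell stage. The medians of the list over the 4 stages were -0.09, 0.17, 0.04 and 0.65, the last 0.23 without replicate 7. In wildtype development Birc3 fell from 620 CPM at the 2-cell to 13.9 CPM at the 4-cell stage (-5.76 ± 0.37, adjusted p = 3.4e-23), the same step at which Bcl2l10 fell.

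Among 16 partners and regulators of the family, Mdm4 and Mdm2, which hold p53 down, were called higher in knockout embryos. Mdm4 was higher in knockout 4-cell embryos (839 against 417 CPM, 1.01 ± 0.15, edgeR adjusted p = 2.5e-05), above the wildtype median in 16 of 16. Its fall from 2-cell to 4-cell was smaller in the knockout (interaction 1.13 ± 0.18, adjusted p = 1.9e-05). In 8-cell embryos Mdm4 was higher by 2.83 ± 0.62 (adjusted p = 0.0042), and by 0.75 ± 0.21 (adjusted p = 0.017) without replicate 7, and the call was lost in limma voom, with the replicate block and in either set of 8 replicate numbers. Mdm2 was higher at the 8-cell stage (133 against 49.9 CPM, 1.45 ± 0.29, adjusted p = 0.0022; 1.39 ± 0.28 without replicate 7, adjusted p = 0.0013). Trp53, the gene of p53, was lower in knockout oocytes (-0.66 ± 0.17, adjusted p = 0.0086) and was not called at the later stages. Ywhae (0.24 ± 0.066) and Vdac2 (0.44 ± 0.12) were higher in knockout oocytes (adjusted p = 0.012 and 0.013), and Ywhaz in knockout 4-cell embryos (0.93 ± 0.19, adjusted p = 0.0011). With all 8 groups in 1 fit the oocyte calls of Trp53, Ywhae and Vdac2 were lost. In replicates 1 to 8 alone those of Trp53 and Ywhae were lost, and in replicates 9 to 16 alone those of Ywhae and Vdac2. Usp9x, whose protein removes ubiquitin from Mcl1, was called higher at the 8-cell stage (1.39 ± 0.46, adjusted p = 0.046), as was Ywhaz (0.85 ± 0.27, adjusted p = 0.033), a 14-3-3 gene with processed copies, and neither was called without replicate 7. Bag1, a binding partner of Bcl2, was lower in knockout 2-cell embryos (-0.98 ± 0.35, adjusted p = 0.049), a call lost without any of 9 replicate numbers. In oocytes 2 were higher and 1 lower of 14 tested (5.27% and 6.69% of all tested genes). At the later stages 1 of 15, 2 of 14 and 4 of 13 were called (17.3%, 16.4% and 11.4% of all tested genes), the last 3 of 13 (Mdm4, Mdm2 and Bag1) without replicate 7 (12.4%). The medians of the list were 0.08, 0.04, 0.24 and 0.46 (0.22 without replicate 7).

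In wildtype development these lists moved as follows, by the call used for the stage steps. Of all tested genes, 31.3% were higher and 20.1% lower from oocyte to 2-cell, 74.7% were called from 2-cell to 4-cell and 20.6% from 4-cell to 8-cell. The other family members had 1 higher and 1 lower of 7 tested from oocyte to 2-cell, 5 higher of 6 from 2-cell to 4-cell, and Bok higher and Bcl2l11 lower of 7 from 4-cell to 8-cell. The apoptosome and caspase genes had 3 higher of 10, among them Casp6 and Dffa, then 4 higher and 2 lower of 11, then Casp6 higher of 9. The caspase inhibitors and death receptor genes had 2 lower of 6 (Birc6 and Birc3), then 2 higher and 3 lower of 8, then none called of 7. The partners and regulators had 3 higher and 2 lower of 15, then Bag1 higher and 7 lower of 15, then 4 lower of 14 (Mdm4, Mdm2, Trp53 and Fbxw7). Whether the steps differed between genotypes was also read for the listed genes. From oocyte to 2-cell the interaction was called for Casp8 (1.16 ± 0.31), Birc3 (0.65 ± 0.18) and Bag1 (-1.76 ± 0.45). The edgeR adjusted p was 0.022, 0.026 and 0.016. These were 1 higher of 10 apoptosome and caspase genes, 1 higher of 6 caspase inhibitors and death receptor genes and 1 lower of 15 partners and regulators. Of 7 other family members tested none was called. Of all tested genes 2.06% were higher and 2.05% lower. The Casp8 call was lost without any of 5 replicate numbers and with no filter, the Birc3 call without any of 3 and with no filter, and the Bag1 call without replicate 10. From 2-cell to 4-cell the interaction was called, beside Mdm4, for Ywhaz (0.72 ± 0.21, edgeR adjusted p = 0.014) and Usp9x (0.62 ± 0.20, adjusted p = 0.028). These were 3 of 15 partners and regulators tested, where 15.5% of all tested genes were called. The other lists had no call at this step. The Usp9x call was lost without any of 5 replicate numbers, with RLE size factors and in DESeq2, and the Ywhaz call without replicate 8. From 4-cell to 8-cell the interaction was called for Bnip2 (-1.0 ± 0.29, edgeR adjusted p = 0.045). It was 1 of 7 other family members tested, where 2.73% of all tested genes were called, and the other lists had no call. The Bnip2 call was lost without any of 11 replicate numbers, without knockout replicate 7 alone, with library totals and with the replicate block.

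The genes whose levels over the 127 libraries were most like those of a member were found by Pearson's r of log2(CPM + 1) among 8095 genes, as a description; the libraries share their stages, and r follows these. Bcl2l10 was most like Zbed3 (r = 0.990) and Pkd2l2 (0.988). Mcl1 was most like Gcsh (0.983) and Tomm5 (0.982). Bcl2l1 was most like Eif4e1b and Parl (both 0.882), and Bid most like Esf1 (0.836) and Srsf11 (0.832). Pmaip1 was most like Trap1a (0.625) and Cdkn1a (0.621). The other 5 members did not reach the mean of 10 CPM in any group that this comparison asked for.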

How the data were processed

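The submitters' processing notes name Trimmomatic 0.32, STAR 2.5.1a, featureCounts 1.5.1 and the build mm10, while the sources used here give no strand or multi-mapping settings. The authors deposited estimated counts per gene, of which 30.6% of non-zero values were not whole, and these were rounded to whole numbers. Groups came from the labels. Depth was 528377 to 4657857 counts per library, so 3 counts, the floor used, stand for 0.644 to 5.68 CPM. CPM were taken on library totals. Tests used edgeR 4.0.16 (quasi-likelihood, TMM, filterByExpr) in R 4.3.3, fitted on all genes of the groups compared, with Benjamini-Hochberg adjusted p under 0.05; SEs are the fold change over the root of F. The fits were tested on simulated data. DESeq2 1.42.0, limma 3.58.1 and other scalings, filters, designs and leave-outs were alternatives, some chosen after seeing the data. Tables were made in Python 3.11.15 with pandas 2.3.3, and figures with matplotlib 3.10.9. Gene positions are those of mm10 and exon lengths came from the deposited table. The 10 members are named in every comparison, with up to 4 called genes per pathway list and the 2 most similar genes per member; other names given with a count complete it, and 1 listed gene is not reported here. Members and lists were chosen with earlier results of these data known.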

Additional observations from a re-analysis of the deposited data

Results flagged for a closer look

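Both entries are steps from oocyte to 2-cell embryo that differed between the genotypes by the interaction test over 64 libraries. Mcl1 rose by 5.42 on the log2 scale in wildtype and by 3.41 in knockout, a difference of -2.01 (edgeR adjusted p = 0.023). Pmaip1 rose by 3.02 in wildtype, with no change called in knockout (0.13), a difference of -2.88 (edgeR adjusted p = 0.013). Both rest on oocyte levels of a few CPM, and limma voom called neither.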

How the results depend on the processing

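Over the alternatives, 1653 fold changes kept their direction and side of the threshold, 44 lost a call, 20 gained one and 41 turned direction, none of the 41 called as reported. With library totals Bcl2l10 from oocyte to 2-cell was 0.11 in wildtype and 0.34 in knockout; in knockout it was 0.0059 with RLE size factors, 0.0031 with DESeq2, 0.014 with the stricter filter and 0.013 in replicates 9 to 16. Its 2-cell to 4-cell interaction was 1.86 in replicates 9 to 16 (edgeR adjusted p = 0.020), 0.69 in limma voom and 0.061 with the replicate block. In replicates 1 to 8 Bid at the 8-cell stage was -0.56, the 4-cell to 8-cell interactions of Bax, Bid and Pmaip1 were -0.18, -0.63 and -0.27, and the knockout Mcl1 step from 4-cell to 8-cell was 0.27 (0.0054 in limma voom, 0.067 without knockout replicate 7). In replicates 9 to 16 Bcl2l1 at the 2-cell stage was -0.14, the Mcl1 4-cell to 8-cell interaction -0.27 (-0.00587 with all 8 groups), and Pmaip1 in knockouts -0.021 to the 2-cell stage (-0.24 with the depth covariate) and 0.20 from 4-cell to 8-cell (0.16 in limma voom). Leaving out replicates in turn, the values that crossed 0 ran from -0.028 to 0.19 (Bcl2l1, 2-cell), -0.032 to 0.39 (Pmaip1, knockout oocyte to 2-cell), -0.099 to 0.016 and -0.14 to 0.077 (Mcl1, 4-cell to 8-cell, wildtype and knockout), -0.051 to 0.34 (Bcl2l1, oocyte to 2-cell interaction), -0.52 to 0.63 (Bcl2l10, 2-cell to 4-cell interaction) and -0.089 to 0.17 (Mcl1, 4-cell to 8-cell interaction). The number of members called moved as follows; the cause was not tested. Knockout against wildtype gave 1 instead of 0 in oocytes with library totals, DESeq2, limma voom or no filter (0 to 1 leaving out each replicate number), and 0 instead of 1 at the 2-cell stage in replicates 9 to 16. At the 8-cell stage it gave 1 instead of 0 with DESeq2, replicates 9 to 16 or without knockout replicate 7, 2 with no filter and 3 with all 8 groups in 1 fit (0 to 1 leaving out each number). From oocyte to 2-cell it gave 5 instead of 3 in wildtype with DESeq2 or all 8 groups, and 4 instead of 2 in knockout with no filter. From 4-cell to 8-cell in wildtype it gave 2 instead of 1 with library totals, DESeq2, all 8 groups or no fold minimum, and 0 with limma voom, no filter, the replicate block or replicates 1 to 8 (0 to 2 leaving out each number). In knockout it gave 2 instead of 0 with DESeq2, no filter or all 8 groups, and 1 with limma voom, replicates 1 to 8 or no fold minimum (0 to 1). From oocyte to 8-cell the stricter filter gave 2 instead of 5. The oocyte to 2-cell interaction gave 0 instead of 2 with limma voom or replicates 9 to 16, and 1 with no filter, the stricter filter, replicates 1 to 8, all 8 groups or without knockout oocyte replicate 15 (1 to 2). The 2-cell to 4-cell interaction gave 1 instead of 0 in either set of replicates, and the 4-cell to 8-cell interaction 1 with no filter or all 8 groups.

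Calls over all genes ranged from 161 to 1579 (919 as reported) in oocytes, 140 to 2146 (1512) at the 2-cell, 138 to 2670 (1229) at the 4-cell and 1 to 3504 (826) at the 8-cell stage for knockout against wildtype. At the 8-cell stage 627 genes were higher and 199 lower, against 507 and 396 without replicate 7. For the steps they ranged from 3612 to 14100 (5255) and 3473 to 13545 (5052) to the 2-cell, 6558 to 16904 (8046) and 6563 to 16420 (8074) to the 4-cell and 854 to 4319 (1817) and 564 to 2869 (1057) to the 8-cell stage in wildtype and knockout, and from 6518 to 17612 (8713) between oocyte and 8-cell. For the interactions they were 5 to 674 (421), 329 to 1922 (1673) and 5 to 1673 (241). The replicate numbers shared by the groups were checked for pairing. Deviations of same-numbered wildtype and knockout libraries had a mean r of 0.024, -0.026, 0.035 and 0.032 at the 4 stages. For other numbers it was -0.0011, 0.0023, -0.0019 and -0.0017. Over 0.1 were 5, 3, 4 and 4 of 16, 16, 16 and 15 pairs. The check compares single numbers and cannot show whether sets of replicate numbers differ. With the replicate block Mcl1 at the 2-cell stage was -1.01 (edgeR adjusted p = 0.034) and the Pmaip1 step from 4-cell to 8-cell in wildtype -1.41 (adjusted p = 0.14). Members under a few CPM, such as Bcl2, Bak1 and Bbc3, are limited by depth.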
